A study of Mus musculus with 6 samples.

Results

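The cells described are the mast cells of 3 mouse colon tumours of the AOM PN model, read from droplet single-cell RNA counts. A barcode was taken as a member when it held at least 200 genes and at most 20% mitochondrial transcripts, at least 5 molecules (unique molecular identifiers, UMIs) of Cpa3, at least 1 of Kit, Fcer1a and Ms4a2 together, fewer than 2 of Mcpt8, and 0 of Cd3e, Cd79a and Epcam. Cpa3 is the mast cell carboxypeptidase, Kit the receptor for stem cell factor, Fcer1a and Ms4a2 subunits of the IgE receptor, and Mcpt8 a protease used as a marker of basophils. Cd3e, Cd79a and Epcam mark T cells, B cells and epithelium. Members were thus chosen by their own counts of these 8 genes, which are given as a description only. The rule found 940, 167 and 1490 members in AOM PN 1, 2 and 3, which is 2597 of 33310 barcodes kept in this model. The whole series of 6 libraries held 50875 kept barcodes.

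All 6 libraries came from whole colon tumours of male mice, culled at clinical endpoint, whose dissociated cells were sorted with DAPI to remove dead ones. AOM PN mice had the genotype VilcreER P53fl/fl Notch1Tg and are labelled Ageing Tumor. They received 2 mg of intraperitoneal tamoxifen and, from day 4, azoxymethane (AOM, a colon carcinogen) at 10 mg/kg weekly for 6 weeks. Apc ICI mice had the genotype VilCreER Apcfl/fl, have NA as their treatment label, carry the label Intracolonic Induction, and were induced by 70 µl of 100 µM 4-OH tamoxifen injected under the colonic mucosa. In both models the inducible Cre is driven by villin, a gene of the gut epithelium, so the engineered alleles are recombined in epithelial cells and the mast cells are host cells. The labels do not give ages, and do not say whether each tumour came from another animal, so p-values apply to these samples only. With library as a block, they set the difference between the sums of a library against its spread from library to library. With so few libraries, each fit estimates that spread largely by sharing it across genes. Small p-values therefore do not measure a gene's own spread.

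Mast cells arise from bone marrow progenitors and finish their development in tissue, where Kit signalling keeps them alive. Their granules store proteases, amines and heparin-like proteoglycans, and binding of antigen to IgE on the surface receptor releases these and starts the synthesis of lipid mediators and cytokines. In mice, mucosal mast cells of the gut epithelium are known for the chymases Mcpt1 and Mcpt2, whereas connective tissue mast cells of the skin and submucosa are known for Mcpt4, Cma1 (also called Mcpt5), Cpa3 and the tryptases. Gut mast cells multiply during worm infection under interleukins such as IL-3 and IL-9 and gain Mcpt1 under TGF-beta.

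The granule proteases that separate these states lie close together in the genome. Mcpt1 (chromosome 14, 56017971 to 56020384, forward strand, GRCm38), Mcpt2 (56042041 to 56044642, forward), Mcpt4 (56059629 to 56062313, reverse) and Cma1 (55941451 to 55944675, reverse) are part of a run of 9 listed protease genes within 320.81 kb. The run also holds Cma2, Mcpt9, Mcpt8, Ctsg and Gzmb. The tryptases Tpsab1 and Tpsb2 are on chromosome 17 (25343245 to 25345562 and 25366305 to 25369098), and Cpa3 is on chromosome 3 (20215620 to 20242181). Windows from 250 bases before to 50 bases after the gene start are shown for the chymases that define the states and for Cpa3, which chose the cells, because GATA factors are known regulators of mast cell genes. Each is the RefSeq sequence of GRCm38.p6 on the gene's strand, 5′ to 3′, and capitals mark a GATA motif.
Mcpt1 (chr14:56017714-56018013, forward strand): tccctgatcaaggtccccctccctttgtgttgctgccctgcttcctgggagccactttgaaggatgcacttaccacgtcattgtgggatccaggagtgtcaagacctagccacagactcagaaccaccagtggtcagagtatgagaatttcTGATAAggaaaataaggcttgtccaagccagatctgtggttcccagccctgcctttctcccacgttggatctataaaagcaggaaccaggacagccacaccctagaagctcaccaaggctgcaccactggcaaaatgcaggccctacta
Mcpt4 (chr14:56062261-56062560, reverse strand): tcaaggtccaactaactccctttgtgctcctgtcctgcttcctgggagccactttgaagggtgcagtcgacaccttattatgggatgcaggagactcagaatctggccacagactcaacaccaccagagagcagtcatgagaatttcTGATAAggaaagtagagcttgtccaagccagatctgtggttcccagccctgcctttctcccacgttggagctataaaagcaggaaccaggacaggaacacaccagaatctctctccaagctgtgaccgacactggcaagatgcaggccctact
Cma1 (chr14:55944626-55944925, reverse strand): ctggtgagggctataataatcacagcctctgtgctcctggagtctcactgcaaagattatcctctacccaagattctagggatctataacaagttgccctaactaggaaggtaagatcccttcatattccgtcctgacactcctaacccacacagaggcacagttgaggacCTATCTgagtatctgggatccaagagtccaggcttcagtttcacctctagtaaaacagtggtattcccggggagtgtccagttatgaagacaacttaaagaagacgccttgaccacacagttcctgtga
Cpa3 (chr3:20242132-20242431, reverse strand): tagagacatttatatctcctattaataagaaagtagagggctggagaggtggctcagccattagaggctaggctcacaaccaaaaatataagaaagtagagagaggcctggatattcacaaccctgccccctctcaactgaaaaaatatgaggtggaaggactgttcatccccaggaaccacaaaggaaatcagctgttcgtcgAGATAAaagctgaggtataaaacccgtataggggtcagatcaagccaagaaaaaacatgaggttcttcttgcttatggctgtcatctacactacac

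The motif forms searched were AGATAA, also its variant AGATAG, with TGATAA and also its variant TGATAG, on both strands, and 29.8% of 32851 such windows of all genes held at least 1 of them. Mcpt1 and Mcpt4 both held TGATAA, at 99 and 103 bases before the start. Cma1 held AGATAG on the opposite strand at 79 bases and Cpa3 AGATAA at 46 bases before the start. The windows of Mcpt9, Mcpt8, Gzmb and Ctsg held none of the 4 forms, and Mcpt2, Cma2, Tpsb2 and Tpsab1 had no entry. A match is a description of the letters only. Exact 50-base stretches of the last 500 transcript bases were compared between the listed proteases, since reads from the 3′ end are counted there. Mcpt1, Mcpt2 and Cma1 shared none with another of them, 12.9% of the Mcpt4 stretches were also in Cma2, and 51.2% of those of Mcpt9 were in Cma2. Counts of Cma2 and Mcpt9 are therefore uncertain.

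The AOM PN libraries held 87107277 to 98583066 UMIs, and haemoglobin transcripts took 25.5%, 29.0% and 1.87% of them in AOM PN 1, 2 and 3. Members carried a median of 4087, 9072 and 7952 UMIs and 1283.5, 2182 and 1895 genes, with 2.13%, 1.78% and 1.95% mitochondrial UMIs. Because depth differed, shares and states were read after thinning each member to 1500 UMIs, which left 829, 161 and 1434 members. The members left out as too shallow were 111, 6 and 56. Barcodes marked as doublets made up 11.3%, 26.3% and 12.3% of members, against 9.34%, 7.08% and 10.2% of all kept barcodes, and were left in. One barcode sequence (1) was a member in both AOM PN 1 and AOM PN 3.

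Mast cells made up very different parts of the 3 tumours. They were 8.05% of kept barcodes in AOM PN 1 (95% exact binomial interval 7.56% to 8.56%), 1.89% in AOM PN 2 (1.61% to 2.19%) and 11.7% in AOM PN 3 (11.1% to 12.2%). None of these intervals overlapped another, and intervals cover counting error only. The gate itself set part of this picture. Of the 1261, 242 and 2832 barcodes with at least 5 Cpa3 UMIs, the Mcpt8 limit alone removed 123, 46 and 967, the Cd3e step alone 67, 9 and 105, and the Epcam step alone 66, 8 and 53. Without the Mcpt8 limit, an alternative added after seeing the data, the shares were 9.10%, 2.41% and 19.2%. Barcodes just inside the Cpa3 limit, with 5 or 6 UMIs, held Mcpt1 and Mcpt2 at 50775, 28099 and 74932 counts-per-million of all UMIs (CPM; 62, 7 and 32 barcodes). Those just outside, with 3 or 4, held 44206, 16301 and 34937 CPM (62, 10 and 60 barcodes).

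**Figure D1:**
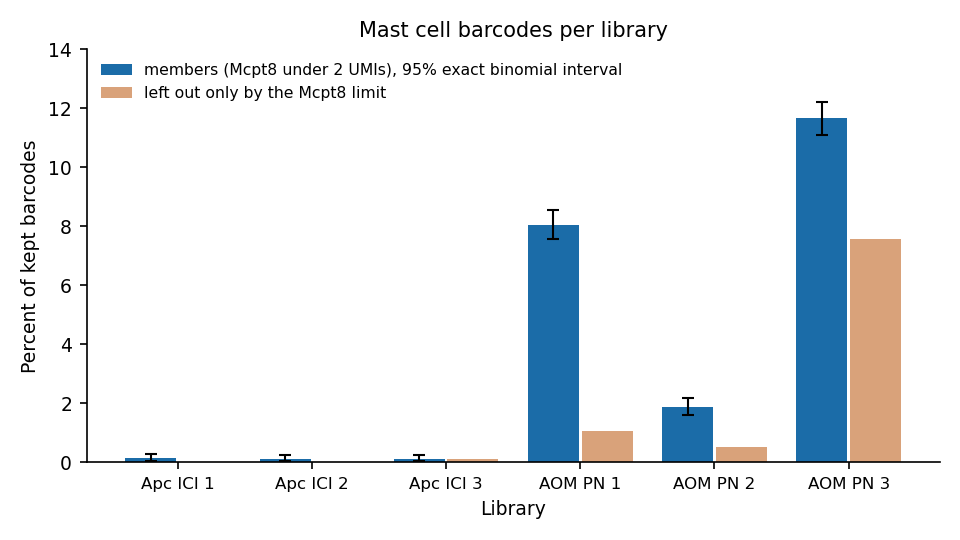
Mast cell barcodes as a percent of kept barcodes in each of the 6 libraries, with 95% exact binomial intervals, beside the barcodes left out only because they held 2 or more Mcpt8 UMIs. The AOM PN bars stand at 8.05%, 1.89% and 11.7%, the Apc ICI bars at 0.140% or less, and AOM PN 3 has the most barcodes left out by Mcpt8.

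The label of mucosal mast cells was checked against Mcpt1 and Mcpt2, which were not used by the gate. Its other listed markers were Tpsb2, also outside the gate, and the gate genes Kit and Cpa3. The tryptases and Cpa3 are named above for connective tissue mast cells, so Tpsb2 is no check of a mucosal identity. Levels are counts-per-million (CPM) of all UMIs of a library's members. Mcpt1, the secreted mucosal chymase, stood at 48462, 46030.5 and 81886 CPM in AOM PN 1, 2 and 3, and Mcpt2, a closely related mucosal protease, at 58441, 47059 and 92080.4 CPM. Kit stood at 818, 733 and 643 CPM and Tpsb2, a tryptase, at 9088, 7023 and 10954 CPM. The Kit level is fixed in part by the gate and is given as a description. Both were found in nearly every member: after thinning, Mcpt2 was seen in 99.9%, 100% and 100% of members and Mcpt1 in 96.6%, 97.5% and 99.9%. Mcpt2 UMIs were also found in other cells, and neutrophils of the same libraries (S100a8 and S100a9 of at least 10 UMIs and no Cpa3) held Mcpt2 in 48.2%, 15.3% and 75.4% of cells. Neutrophil levels of Mcpt2 were far lower, at 328, 80.8 and 922 CPM.

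Transcripts of other cell types were present among members. Summed over 6 neutrophil markers (S100a8, S100a9, Retnlg, Csf3r, Cxcr2 and Mmp9), members held 7039, 14667 and 2945 CPM, and the 5 erythroid markers 32133, 35929 and 2503 CPM. The 7 T or NK cell markers summed to 32.9, 10.8 and 37.1 CPM, with Cd3e at 0 by the gate. Of the 5 fibroblast markers 4, 4 and 5 were at 0, and of the 6 eosinophil markers 3, 3 and 2, including Epx in all 3 libraries. After thinning, 54.4%, 44.1% and 34.0% of members held a UMI of S100a8, S100a9, C1qa, C1qb, Cd3d, Cd79b or Krt8, genes of neutrophils, macrophages, T cells, B cells and epithelium. AOM PN 3, the library with the least haemoglobin, also had the lowest neutrophil and erythroid sums in its members.

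Genes of the connective tissue type were expressed beside the mucosal ones. Mcpt4, the heparin-binding chymase of connective tissue mast cells, stood at 4759, 3568 and 8107 CPM and Cma1 at 5557, 4436 and 11691 CPM. Both were highest in AOM PN 3 and lowest in AOM PN 2. After thinning, Mcpt4 was detected in 68.4%, 62.7% and 87.2% of members against 6.58%, 1.19% and 11.9% of neutrophils, and Cma1 in 75.9%, 65.2% and 94.9% against 6.18%, 0.855% and 20.6%. Members with a UMI of both genes made up 56.9%, 48.4% and 83.4%, and members with neither 12.7%, 20.5% and 1.26%. Mucosal and connective tissue chymases thus occurred in the same barcodes in each tumour. The other tryptase genes, Tpsab1 and Tpsg1, stood at 1269.7, 673 and 1158 CPM and 297, 202 and 285 CPM.

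Further granule proteases differed more between libraries. Gzmb, granzyme B, a death-inducing protease best known from cytotoxic lymphocytes, stood at 468, 248 and 1179 CPM and was seen in 21.7%, 17.4% and 52.4% of thinned members, against 1.88%, 0.699% and 4.10% of neutrophils. Prss34, also called Mcpt11 and known from basophils and mast cells, stood at 27.2, 29.3 and 74.3 CPM. Both were highest in AOM PN 3. Mcpt9 stood at 186, 358 and 213 CPM and Cma2 at 235, 595 and 576 CPM, so that neither followed the order of the other chymases. Ctsg, cathepsin G, stood at 2.74, 2.39 and 11.1 CPM.

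**Figure D2:**
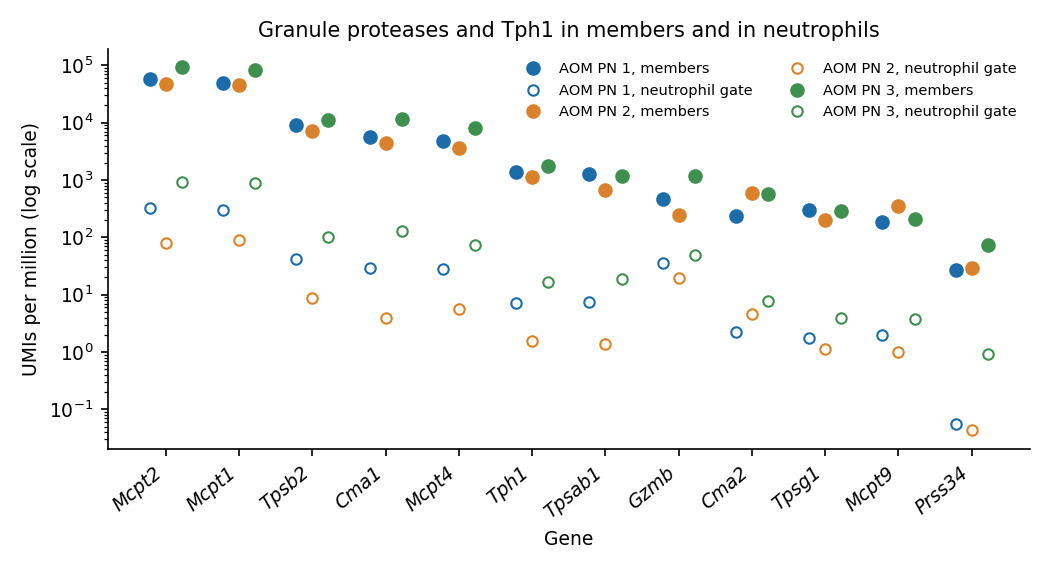
Levels of 11 granule proteases and of Tph1 in CPM on a log scale, 1 filled point per AOM PN library for members and 1 open point for the neutrophil gate of the same library. Members lie above neutrophils for each gene shown: Mcpt2 spans 47059 to 92080.4 CPM in members and 80.8 to 922 CPM in neutrophils.

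Genes for stored amines and the proteoglycan core were present. Tph1, the rate-limiting enzyme of serotonin synthesis outside the brain, stood at 1384, 1122 and 1746 CPM against 7.11, 1.55 and 16.7 CPM in neutrophils. Slc18a2, which loads amines into granules, stood at 178, 192 and 187 CPM. The highest and lowest library differed by less for Slc18a2 than for Tph1. Hdc, which makes histamine, stood at 274, 457 and 219 CPM in members and at 1221, 1978 and 1701 CPM in neutrophils, so its level was higher in neutrophils in each library. Srgn, the serglycin core protein that binds proteases in the granule, was likewise at 5393, 6493 and 5209 CPM in members and 9271, 14995 and 14962 CPM in neutrophils. Cd63, a granule membrane protein used as a mark of degranulation, stood at 5215, 4214 and 5947 CPM.

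Among lipid mediator genes, those for leukotriene and prostaglandin D2 synthesis were detected. Alox5, 5-lipoxygenase, stood at 214, 189 and 240.1 CPM and Alox5ap, its activating protein, at 1173, 1023 and 1095 CPM. Hpgds, the haematopoietic prostaglandin D synthase, stood at 246, 228 and 194 CPM, whereas the other D synthase, Ptgds, had 0 UMIs in all 2597 members, which allows a share of members with a UMI of up to 0.116%. Ltc4s, which makes leukotriene C4, stood at 30.8, 11.97 and 35.4 CPM. Cyp11a1, the first enzyme of steroid synthesis from cholesterol, stood at 338, 402 and 385 CPM and was detected in 39.6%, 41.0% and 40.9% of thinned members, against 2.86, 1.51 and 6.29 CPM in neutrophils.

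Receptors and regulators of the lineage were found in all 3 tumours. Il1rl1, the receptor for the epithelial alarmin IL-33, stood at 497, 435 and 625 CPM, and the IgE receptor chain Fcer1a, a gate gene, at 1275, 1056 and 1658 CPM. Gata2, a factor that mast cells need, stood at 358, 449 and 558 CPM against 2.52, 0.991 and 7.03 CPM in neutrophils, and Mitf and Tal1, factors of the same lineage, at 80.4, 69.4 and 68.8 CPM and 68.8, 57.5 and 55.7 CPM. Each of these genes was above its neutrophil level in every library. Mrgprb2, the receptor for cationic secretagogues known from connective tissue mast cells, stood at 33.6, 20.3 and 44.4 CPM, lowest in AOM PN 2. Itgae, the integrin chain that binds epithelial E-cadherin, stood at 120.3, 237 and 174 CPM and its partner Itgb7 at 93.7, 117 and 103 CPM. The IL-9 receptor gene Il9r stood at 19.6, 30.5 and 12.4 CPM, highest in AOM PN 2.

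Differences between the tumours were described over 646 genes with at least 200 CPM in the members of 1 library. The median ratio of the highest to the lowest library was 1.33, and 114 genes differed by at least 2-fold and 68 by at least 3-fold. The 8 genes with the largest ratio fell into 4 kinds. Gzma, granzyme A, stood at 0.211, 205 and 10.2 CPM (1, 343 and 135 UMIs), almost absent in AOM PN 1. The replication histones Hist1h2ae (317, 15.6 and 524 CPM), Hist1h2ap (255, 19.7 and 386 CPM) and Hist1h1b (345, 19.2 and 307 CPM) were lowest in AOM PN 2. The heat shock genes Hspa1a (181, 849 and 56.2 CPM) and Hspa1b (307, 1449 and 108 CPM) were highest in AOM PN 2. Haemoglobin genes followed the haemoglobin share of the whole library, with Hbb-bs at 19459, 21127 and 1399.5 CPM and Hba-a1 at 5812, 6857 and 489 CPM. Other kept barcodes showed the same order for Hspa1a (138, 605 and 63.1 CPM) and for Hist1h2ae (75.3, 43.1 and 205 CPM), but not for Hist1h1b (98.2, 48.0 and 167 CPM) or Gzma (88.7, 68.9 and 74.98 CPM). The metallothionein Mt1, outside these 8, stood at 768, 505 and 2764 CPM.

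Against all other kept barcodes of a library, the contrast that the gate makes, the 12 genes with the largest ratio of CPM included Tpsab1, Tpsb2, Mcpt4, Mcpt2, Mcpt9, Cma2 and Il1rl1. They also included Cd200r3, an activating receptor of basophils and mast cells, Car8, Atp8b5, Adamts5 and 4932438H23Rik. Tpsb2 was 22.2-, 50.4- and 4.82-fold higher in members and Atp8b5 26.9-, 43.0- and 5.42-fold. Ratios were lowest in AOM PN 3 for all 12 genes. The other barcodes of that library include the 967 that only the Mcpt8 limit had left out. Neutrophils held Mcpt2 at 328, 80.8 and 922 CPM in AOM PN 1, 2 and 3. The part of left-out barcodes or of free RNA in the ratios was not tested.

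Members varied widely in the mucosal chymases. After thinning, Mcpt1 and Mcpt2 together took a median of 8.67%, 7.93% and 17.3% of a member's UMIs, and the range from the 10th to the 90th percentile was 2.47% to 19.03%, 2.47% to 16.9% and 8.49% to 25.3%. Mcpt4 and Cma1 took a median of 0.8%, 0.467% and 2.00%. The medians were highest in AOM PN 3 for both pairs, while the ranges overlapped. Across members of a library, which share a source, the correlation of log-scaled thinned counts of Mcpt1 and Mcpt2 was 0.57, 0.47 and 0.66 (829, 161 and 1434 cells). It was 0.41, 0.53 and 0.26 for Mcpt4 and Cma1, 0.55, 0.67 and 0.61 for Cma1 and Tpsb2, and -0.03, -0.07 and 0.01 for Mcpt1 and Cma1. Other pairs across the mucosal and connective tissue types were positive: 0.30, 0.36 and 0.20 for Mcpt2 and Mcpt4, and 0.17, 0.23 and 0.22 for Mcpt2 and Tpsb2. These are descriptions of sparse counts. Members were then split at the library's median of each pair of genes, and UMIs were summed per library on each side of it; a side is a range of a score, not a cell type, and 88 members of AOM PN 1 lay within 10% of its Mcpt1 and Mcpt2 median.

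Members high in Mcpt1 and Mcpt2 also held more of 4 other proteases, and members low in them held more transcripts known from myeloid cells. Between the high and low groups, 78 of 5228 genes were higher (1.49%) and 167 lower (3.19%) at an adjusted p under 0.05 (edgeR quasi-likelihood test with library as a block, Benjamini-Hochberg over all genes tested). Index and gate genes were left out, and levels from these fits are CPM of the genes tested, scaled by TMM factors. Mcpt4 stood at 8446, 6921 and 13579.8 CPM in the high groups of AOM PN 1, 2 and 3 and at 3633, 3192 and 9110.4 CPM in the low groups (log2 0.96 ± 0.11 SE, adjusted p = 1.88e-07). Mcpt9 stood at 369, 635 and 382 against 54.0, 262 and 220.1 CPM (log2 1.42 ± 0.20 SE, adjusted p = 7.72e-06) and Cma2 at 415, 655 and 1083 against 95.4, 515 and 518 CPM (log2 1.20 ± 0.17 SE, adjusted p = 5.69e-06). These genes were higher in the high group of every library, and for Mcpt9 all 3 high groups lay above all 3 low ones, while for Mcpt4 and Cma2 groups of different libraries overlapped. The Mcpt9 log2 was 0.92 without AOM PN 1 and 2.16 without AOM PN 3. Cma1 rose less, from 4708, 4557 and 13501 to 8274, 5877 and 18139.5 CPM (log2 0.54 ± 0.10 SE, adjusted p = 0.000607), a gene no longer called without AOM PN 1 (log2 0.39) or without marked doublets (log2 0.45). Tpsb2 (log2 0.21, adjusted p = 0.262), Tpsab1 (-0.11, 0.742) and Gzmb (0.39, 0.0812) did not pass the test.

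Ifitm1, an interferon-inducible membrane protein, was among the higher genes, at 3908, 3461 and 4735 against 1056, 1347 and 2803 CPM (log2 1.32 ± 0.14 SE, adjusted p = 2.65e-08). Itgae was higher, at 184, 419.8 and 255 against 88.2, 189.9 and 190.3 CPM (log2 0.73 ± 0.17 SE, adjusted p = 0.00454), but not called without AOM PN 1 (log2 0.58). Scin, the actin-severing protein scinderin, was at 186, 133 and 275 against 25.2, 99.5 and 168 CPM (log2 1.20 ± 0.24 SE, adjusted p = 0.000943), and was also not called without AOM PN 1 (log2 0.67), while its log2 was 2.20 without AOM PN 3. Of the other gene lists, 1 of 8 tested genes for granule matrix and amines was higher (Tph1, log2 0.42) and 1 lower (Hdc, -0.65). The Tph1 call was lost without AOM PN 1 or without AOM PN 2 (log2 0.34 and 0.38), and the Hdc call without AOM PN 2 or AOM PN 3 (-0.53 and -0.47). Of 16 genes of IgE receptor signalling 0 passed in either direction, with a median log2 of -0.05 against -0.00 over all genes; across all genes 773 had an unadjusted p under 0.05, and DESeq2 called 105. Of 13 genes of the unfolded protein response 2 were higher and 0 lower (median 0.33), and of 18 replication and histone genes 3 were higher and 0 lower (median 0.31), of which Hist1h1b and Hist1h2ae had log2 folds of 0.93 and 0.90, but 0.18 and 0.19 without AOM PN 1 and 2.19 and 2.31 without AOM PN 3. Of 12 antigen presentation and checkpoint genes 5 were lower and 0 higher (median -0.25). Of 27 immediate early and heat shock genes 7 were lower and 0 higher, with a median of -0.25. Of 11 chemokine genes 6 were lower, among them Ccl4 at 1164, 676 and 678 against 1855, 1067 and 1179 CPM (log2 -0.72 ± 0.11 SE, adjusted p = 3.45e-05). Il4, Il6, Il13 and Tnf did not pass, with Il4 at log2 0.61 (adjusted p = 0.15).

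The lower genes were mostly ones that neutrophils hold at higher levels. Of the 167 lower genes 141 stood at least 2-fold higher in neutrophils than in members, against 1 of the 78 higher genes and 578 of all 5228 genes tested (11.1%). The 6 with the largest fall were Inhba, H2-Eb1, Thbs1, H2-Ab1, Itgam and H2-Aa, with log2 folds from -5.51 to -2.88; without AOM PN 1 those of Inhba and Thbs1 were -6.90 and -3.96. Neutrophil markers summed to 2897, 4179 and 865 CPM in the high groups and to 7748, 17631 and 3760 CPM in the low ones, and erythroid markers to 12654, 19915 and 206 against 45419, 36169 and 4008 CPM. Monocyte or macrophage markers summed to 166, 214 and 55.4 against 681, 675 and 479 CPM, and dendritic cell markers to 12.9, 17.1 and 22.5 against 141, 96.4 and 232 CPM. Without marked doublets 42 genes were called, 25 higher and 17 lower, Il1b moved from a log2 of -2.22 to -0.73 and H2-Aa from -2.88 to -0.48. Without the members that held a UMI of the 7 genes of other cells, 44 were called, and 152 without AOM PN 1. Higher genes called in all of the full set, the set without marked doublets and the set without those members were 11, including Mcpt4, Mcpt9, Cma2, Ifitm1, Plac8, Rnase6 and Ctla2a, and lower ones 9, including Ccl4, Nr4a3, Cd14, Ahnak and the 4 haemoglobin genes.

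Members high in Mcpt4 and Cma1 held more of 5 other proteases, and members low in them, as in the first split, held more transcripts known from myeloid cells. In members high in them, 68 of 5268 genes were higher (1.29%) and 186 lower (3.53%). Without AOM PN 1 no gene was called, so every call named for this split was lost there. Of 9 granule proteases tested, 5 were higher and 1 lower, with a median log2 of 0.35 against 0.00 over all genes. Prss34 stood at 56.8, 77.0 and 133 against 7.96, 8.34 and 37.7 CPM (log2 2.06 ± 0.26 SE, adjusted p = 3.22e-05) and Tpsb2 at 13163, 11792 and 17153 against 7280.4, 3979.7 and 9129.6 CPM (log2 1.09 ± 0.11 SE, adjusted p = 1.83e-06). Mrgprb2 was at 88.8, 68.4 and 100.4 against 27.1, 33.4 and 29.8 CPM (log2 1.68 ± 0.23 SE, adjusted p = 0.000114). For Mrgprb2 the 3 high groups all lay above the 3 low groups. Gzmb was at 623, 453 and 1675 against 315, 150.2 and 1135 CPM (log2 0.85 ± 0.15 SE, adjusted p = 0.000885). Mcpt2 (log2 0.52) and Mcpt1 (0.29) were also higher, and the Mcpt1 call was lost without AOM PN 2 (0.27) and without marked doublets (0.14).

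Genes outside the granule proteases moved as well, though none of their calls remained without AOM PN 1. Tph1 was higher, at 1872, 1419 and 2299.6 against 1093, 718 and 1591 CPM (log2 0.73 ± 0.11 SE, adjusted p = 0.00032), as were the chemokine genes Ccl2 (log2 0.70, adjusted p = 0.000203) and Ccl1 (0.92, 0.000546), of which Ccl1 was not called without AOM PN 2 (0.89). Il1rl1 (0.50, 0.0176), Ltc4s (1.01, 0.0343) and Il13 (0.73, 0.0469) passed in the full set, and each was lost without AOM PN 2. Mcpt9 was lower, at 114, 231 and 78.3 against 239, 534 and 425 CPM (log2 -1.70 ± 0.21 SE, adjusted p = 3.41e-05), and so was Itgae, at 63.9, 222 and 120.2 against 167, 300.4 and 263 CPM (log2 -1.08 ± 0.18 SE, adjusted p = 0.000557). Mcpt9 and Itgae were thus higher in members high in Mcpt1 and Mcpt2 and lower in members high in Mcpt4 and Cma1; the difference between the 2 splits was not tested. Of 11 homing and adhesion genes 7 were lower and 0 higher, among them Cxcr2, Itgam, Cd44 and Ccr2, genes also known from neutrophils and monocytes. Without AOM PN 2 the Gzmb (log2 0.74), Cxcr2 (-2.04), Itgam (-1.75), Cd44 (-0.48) and Ccr2 (-1.58) calls were also lost. The largest falls included those of Inhba, Ms4a6c, Il1f9, Cxcl3 and Itgax, with log2 folds from -4.21 to -2.65. Without AOM PN 3 the log2 folds of Prss34, Mcpt9, Ms4a6c, Cxcl3 and Itgax were 2.86, -1.11, -1.94, -3.44 and -1.85. Without AOM PN 1 that of Ms4a6c was -4.06, and without AOM PN 2 that of Itgax was -3.28.

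This split too moved with transcripts of other cells. Neutrophil markers summed to 2899, 5067 and 1168 CPM in the high groups and 7577, 17086 and 3407 CPM in the low ones, and 138 of the 186 lower genes stood at least 2-fold higher in neutrophils than in members, against 1 of the 68 higher genes and 587 of all 5268 genes tested (11.1%). Without AOM PN 1 no gene was called (0, with 358 at an unadjusted p under 0.05, and 96 by DESeq2 on all 3 libraries), and without AOM PN 2 there were 72. Without marked doublets 117 genes were called and without the members holding a UMI of the 7 genes 37. In the full set and both of these, 14 higher genes were called, including Prss34, Tpsb2, Mrgprb2, Gzmb, Tph1, Mcpt2, Lgals1 and Crip1, and 12 lower ones, including Mcpt9, Itgae, Ifitm1, Plac8, Cd74 and Il1b.

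**Figure D3:**
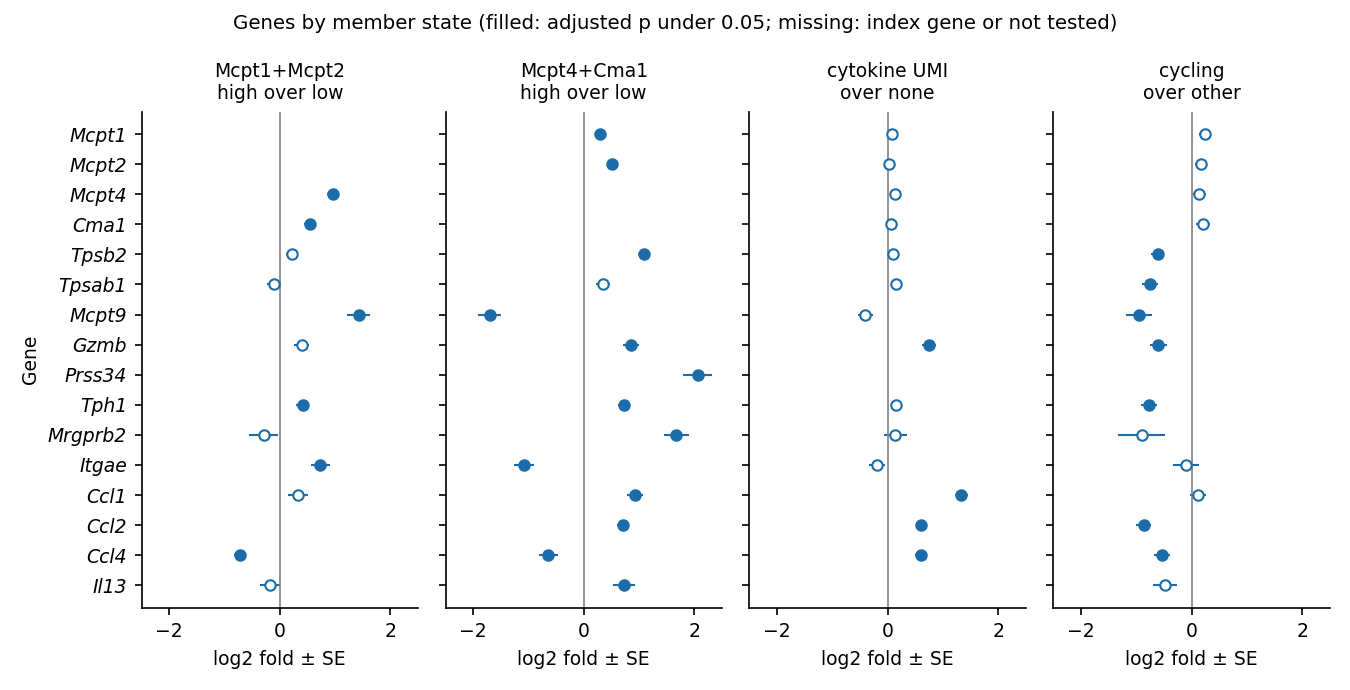
Log2 fold change with its standard error for 16 genes in the 4 comparisons of member states, 1 panel each, filled where the adjusted p was under 0.05 and missing where the gene defined the state or was not tested. Mcpt9 and Itgae lie on opposite sides of 0 in the first 2 panels, and Mcpt1, Mcpt2, Mcpt4 and Cma1 lie near 0 in the cytokine and cycling panels.

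At 1500 UMIs, type 2 cytokine transcripts were found in a minority of members. Il4 was detected in 6.03%, 11.2% and 11.4% of thinned members (95% intervals 4.51% to 7.87%, 6.76% to 17.1% and 9.83% to 13.2%) and Il13 in 9.65%, 4.35% and 21.3% (95% intervals 7.73% to 11.9%, 1.77% to 8.75% and 19.2% to 23.5%). The Il13 share was lowest in AOM PN 2 and highest in AOM PN 3, with intervals that overlapped between AOM PN 1 and AOM PN 2, and the Il4 share was lowest in AOM PN 1. At full depth the shares were 15.5%, 31.1% and 41.5% for Il4 and 18.5%, 20.96% and 45.8% for Il13. The thinned Il4 share of AOM PN 2 rests on 18 members and became 6.67% and 7.95% at Cpa3 limits of 3 and 10. Neutrophils held Il4 in 0.147%, 0.0259% and 0.153% and Il13 in 0.221%, 0.104% and 1.23% of cells, and B cells (Cd79a of at least 2 UMIs, no Cpa3 and no Cd3e) held Il13 in 0%, 1.23% and 0.388%, at median depths of 2835 to 3711 UMIs in neutrophils and 3373 to 15051 in B cells before thinning. Il6, an acute inflammatory cytokine, was seen in 15.6%, 20.5% and 22.8% of members against 0.404%, 0.259% and 0.652% of neutrophils. Tnf was seen in 19.2%, 21.7% and 24.5% of members and in 13.2%, 15.2% and 22.6% of neutrophils, which themselves transcribe it.

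Cytokines known from stimulated mast cells in culture were not all present. Il3 and Il5 had 0 UMIs in all 2597 members, which allows a share of members with a UMI of up to 0.116% for each. Il9 had 1 UMI, in AOM PN 3. Csf2, the gene of GM-CSF, stood at 8.65, 2.39 and 0.0752 CPM, and its thinned share was 0.483%, 0% and 0%. Areg and Il1b were at lower levels in members (45.2, 14.4 and 31.4 and 922, 2709 and 781 CPM) than in neutrophils (377, 121 and 152 and 11319.5, 15958 and 19719 CPM).

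Chemokine transcripts were found as well. Ccl2, which attracts monocytes, was seen in 55.5%, 37.9% and 55.1% of thinned members, against 4.41%, 1.503% and 4.07% of neutrophils and 0%, 0% and 3.10% of B cells. Ccl1, a ligand of Ccr8, was seen in 16.5%, 10.6% and 28.6% against 0.662%, 0.233% and 3.18% of neutrophils, and Ccl7, another monocyte attractant, in 8.69%, 6.83% and 9.41% against 1.25%, 0.311% and 1.19%. Their levels were 2059.8, 968 and 1632 CPM for Ccl2, 508, 242 and 1111 CPM for Ccl1 and 387, 177 and 423 CPM for Ccl7. Ccl1 was highest in AOM PN 3 and lowest in AOM PN 2. Ccl4 was seen in 30.5%, 24.8% and 17.4% of members and 26.1%, 18.3% and 18.5% of neutrophils, shares of similar size, and Ccl3 was less frequent in members (11.0%, 10.6% and 6.42%) than in neutrophils (29.2%, 23.8% and 23.6%).

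**Figure D4:**
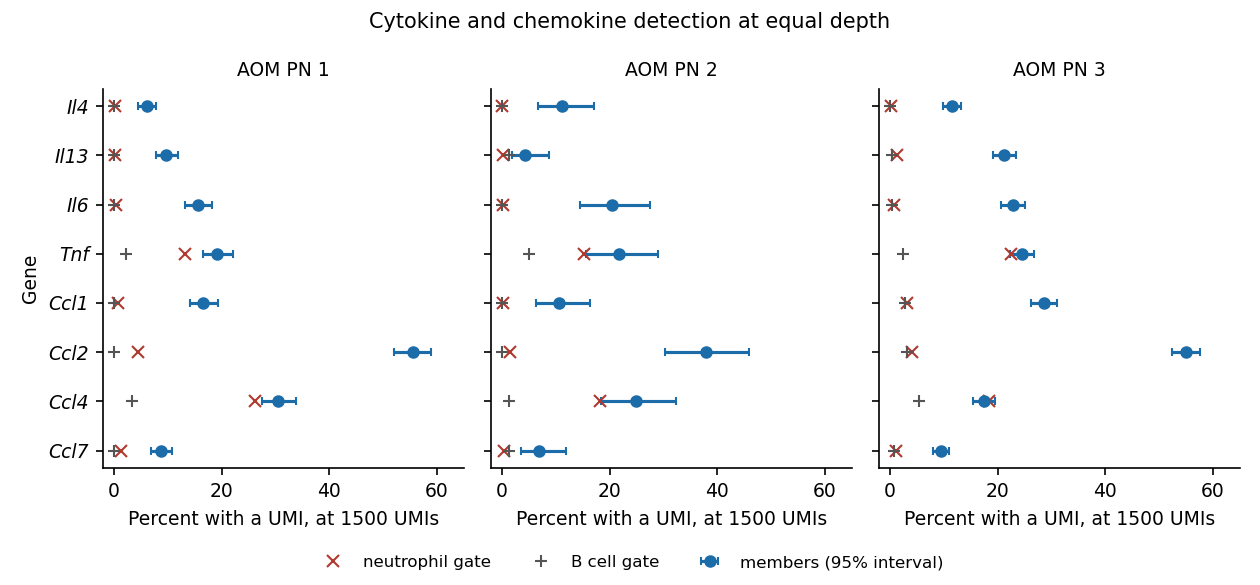
Percent of cells with a UMI of 8 cytokine and chemokine genes after thinning to 1500 UMIs in each AOM PN library, for members with 95% exact binomial intervals, for the neutrophil gate and for the B cell gate. Members stand well apart from both reference gates for Il6, Ccl1 and Ccl2, and overlap with neutrophils for Ccl4 in AOM PN 3.

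Members with a UMI of Il3, Il4, Il5, Il6, Il9, Il13, Csf2 or Tnf made up 40.4%, 44.1% and 54.0% of thinned members, and those with UMIs of at least 2 of these 8 genes 9.17%, 12.4% and 19.3%. Tnf, whose share in neutrophils was not far below that in members, was held by 159, 35 and 351 of the positive members. The share of neutrophils or B cells with a UMI of any of the 8 genes was not taken. The part of RNA from other cells in this state was not tested. Il4 and Il13 were both seen in only 8, 1 and 53 members, Il6 and Tnf in 33, 11 and 106, and Ccl1 and Il13 in 26, 1 and 142. Correlations of Ccl1 with Il13 over members were 0.23, 0.04 and 0.30, and of Il4 with Il13 0.07, 0.03 and 0.12, which are weak in such sparse counts.

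Cytokine-positive members held more chemokine transcripts. Compared with members without a UMI of the 8 genes, 11 of 5119 genes were higher (0.215%) and 9 lower (0.176%). Ccl1 stood at 587, 328 and 1567 CPM in positive and 281, 82.3 and 575 CPM in negative members (log2 1.33 ± 0.12 SE, adjusted p = 8.66e-10), and Ccl2 at 2907, 1592 and 2536 against 2149, 815 and 1645 CPM (log2 0.61 ± 0.09 SE, adjusted p = 9.82e-05). Both were higher in each library. Of 11 chemokine genes 4 were higher and 0 lower, with a median log2 of 0.43 against -0.00 over all genes; the other called ones were Ccl7 (log2 1.08, adjusted p = 0.000169) and Ccl4 (0.61, 0.00112), which were each not higher in AOM PN 2. Gzmb was higher, at 547, 540.4 and 1664 against 389, 112 and 1034 CPM (log2 0.74 ± 0.13 SE, adjusted p = 0.000655), as were the immediate early genes Ier3 (log2 0.54, adjusted p = 0.0001), Egr3 (0.64, 0.00692) and Nr4a1 (0.58, 0.00716). Mir155hg, the host transcript of miR-155, was at 73.9, 86.9 and 70.0 against 38.2, 37.4 and 30.2 CPM (log2 1.10 ± 0.23 SE, adjusted p = 0.0072).

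The chymases Mcpt1, Mcpt2, Mcpt4 and Cma1 and the tryptase Tpsb2 did not pass in this comparison. Their log2 folds were 0.08, 0.02, 0.13, 0.06 and 0.09 in turn, with adjusted p of 0.992 to 0.996. Cma2 was lower (log2 -0.76, adjusted p = 0.00535), though not in AOM PN 2, and the 4 haemoglobin genes fell, Hbb-bs from 24203, 20126 and 1677 to 10053, 12285 and 1049 CPM. Erythroid markers summed to 16661, 21108 and 1657 CPM in positive and 37462, 33963 and 2675 CPM in negative members, and neutrophil markers to 5301, 8376 and 2282 against 5341, 13274 and 2379 CPM. Basophil markers (Mcpt8, Prss34, Cd200r3, Itga2 and Il4) summed to 505, 545 and 579 CPM in positive and 362, 304 and 420 CPM in negative members. Il4 is one of the 8 genes that chose the positive members, which raises their sum. The part of haemoglobin RNA or of basophil RNA in these results was not tested. Cma2 was not called without AOM PN 1 (log2 -0.49) or without AOM PN 3 (-0.56). The count was 13, 34 and 11 genes without AOM PN 1, 2 and 3 in turn; Ccl1, Ccl2 and Gzmb were called in each, Ccl7 and Ccl4 were lost without AOM PN 3 (log2 0.70 and 0.38), Ccl4 also without AOM PN 1 (0.52), and Ier3, Egr3, Nr4a1 and Mir155hg were lost without AOM PN 1 and without AOM PN 3.

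A part of the members held transcripts of cycling cells. UMIs of at least 2 of 30 mitotic and DNA synthesis genes were found in 69 of 829, 8 of 161 and 197 of 1434 thinned members, which is 8.32% (6.53% to 10.4%), 4.97% (2.17% to 9.56%) and 13.7% (11.997% to 15.6%). UMIs of at least 5 of the genes were found in 36, 2 and 94. Mki67, the proliferation marker, was detected in 4.58%, 3.11% and 6.49% of members and in 1.62%, 2.67% and 3.72% of neutrophils and 3.26%, 0% and 0.775% of B cells. In AOM PN 2 the member share rests on 5 members, and its interval of 1.02% to 7.10% holds the neutrophil share. The share of neutrophils or B cells that met the cycling rule was not taken. Genes were compared in AOM PN 1 and AOM PN 3 only, since AOM PN 2 had fewer than 20 cycling members.

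In cycling members 321 of 5640 genes were higher (5.69%) and 174 lower (3.09%). Of 21 replication and histone genes outside the index 17 were higher and 0 lower, with a median log2 of 2.44 against -0.04 over all genes. Since mitotic and DNA synthesis genes chose the cycling members, such a rise follows from that choice and is given as a description. Hist1h2ae stood at 1792 and 2406 CPM in cycling members of AOM PN 1 and 3 and at 16.9 and 23.0 CPM in the others (log2 6.71 ± 0.19 SE, adjusted p = 1.13e-244). Hist1h3c had the largest fold (log2 7.72 ± 0.33). Stmn1, a microtubule regulator, stood at 872 and 936 against 42.7 and 80.8 CPM (log2 3.84 ± 0.17 SE, adjusted p = 2.09e-99) and Hmgb2 at 2012 and 1956 against 293 and 349.9 CPM (log2 2.62 ± 0.14 SE, adjusted p = 5.43e-69). For these genes both cycling sums lay far above both others. With only AOM PN 1 and 3 in the fit, its p-values rest largely on a spread shared across genes. DESeq2 called 115 genes on the same sums, where edgeR called 495.

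Several mast cell genes were lower in cycling members. The lower side depended more on the processing than the higher one. The 174 lower genes became 18 with DESeq2, 43 at a Cpa3 limit of 10 and 137 without marked doublets. The 321 higher genes became 97, 174 and 280. Of 11 granule proteases 5 were lower and 0 higher, with a median log2 of -0.60. Tpsb2 stood at 7100.3 and 8007 against 9998 and 13298 CPM (log2 -0.61 ± 0.12 SE, adjusted p = 1.54e-05) and Tpsab1 at 919.9 and 824 against 1503 and 1415 CPM (log2 -0.75 ± 0.14 SE, adjusted p = 8.83e-06). Tph1 stood at 949 and 1071 against 1459.8 and 2001 CPM (log2 -0.78 ± 0.14 SE, adjusted p = 2.41e-06) and Il1rl1 at 326 and 468 against 589 and 869.6 CPM (log2 -0.88 ± 0.16 SE, adjusted p = 2.81e-06). In each of these genes both cycling sums lay below both others. Cma2 (log2 -2.25), Gzmb (-0.60), Gata2 (-0.69), Slc18a2 (-0.93) and Ccl2 (-0.87) also fell, and so did Csf2rb, the shared receptor chain for IL-3, IL-5 and GM-CSF (-0.71). Mcpt1 (log2 0.24, adjusted p = 0.163), Mcpt2 (0.17, 0.378), Mcpt4 (0.14, 0.611) and Cma1 (0.21, 0.355) did not pass.

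Of 25 surface receptor genes 5 were lower, of 19 NF-kB and feedback genes 7, and of 27 genes of the immediate early and heat shock list 8, with 0 higher in each and medians of -0.66, -0.70 and -0.36. The largest falls included Tnik (log2 -3.75), Anxa6 (-3.47), Ric8a (-3.40) and Sox5 (-3.25). Tnip3 and Larp1b had 0 UMIs in the cycling sums against 65 each in the others, which makes each at least 2.89-fold lower when set against 3 counts over the group. Of the 174 lower genes 23 stood at least 2-fold higher in neutrophils (13.2%, against 10.2% of all genes tested). Before thinning, cycling members held a median of 8819 and 12728 UMIs and the others 4394 and 7674, and the part of this depth difference in the result was not tested. Called in the full set, without marked doublets and without members holding a UMI of the 7 genes were 114 higher genes and 43 lower ones, the latter including Tpsb2, Tpsab1, Tph1, Gzmb, Cma2, Il1rl1, Runx3 and Ccl2.

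The states overlapped in each library. Members above the median of Mcpt1 and Mcpt2 were also above that of Mcpt4 and Cma1 in 59.9%, 59.0% and 53.7% of cases, against 36.4%, 41.0% and 43.0% of the low groups. A cytokine UMI was held by 40.1%, 47.4% and 54.1% of the members high in Mcpt1 and Mcpt2 and by 40.7%, 41.0% and 53.9% of those low in them. Cycling members were 11.4%, 7.69% and 12.8% of the high groups and 5.30%, 2.41% and 14.6% of the low groups. The order for cycling was therefore not the same in AOM PN 3 as in AOM PN 1 and 2, and these shares were described without a test.

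The limit on Mcpt8 left out barcodes that otherwise met the gate. Of 1063, 213 and 2457 barcodes that met every other step, 81.1%, 65.7% and 47.6% held 0 Mcpt8 UMIs, and 4.05%, 8.92% and 17.3% held at least 10, with a highest count of 87, 139 and 343. At 1500 UMIs, 2 to 9 Mcpt8 UMIs were found in 4.62%, 6.76% and 14.3% and 10 or more in 0.105%, 1.45% and 0.875%. The barcodes left out by this limit alone carried Mcpt1 and Mcpt2 at 155862, 181950 and 174376 CPM, against 106903, 93089 and 173966 CPM in members. They also carried Gzmb at 1883, 827 and 1784 CPM against 468, 248 and 1179 CPM, and Kit at 537, 599 and 534 CPM. Their Mcpt8 level, which chose them, was 1270, 1077 and 1271 CPM. Median depth was 8664, 14031 and 12824 UMIs, above that of members, and the part of depth in the Mcpt8 limit was not tested.

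**Figure D5:**
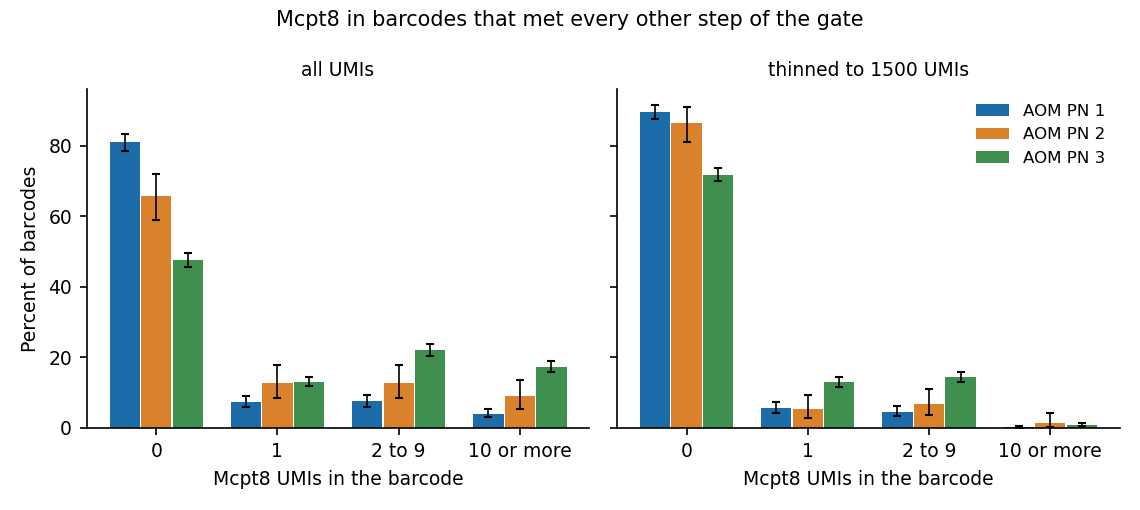
Percent of barcodes with 0, 1, 2 to 9 and 10 or more Mcpt8 UMIs among those that met every other step of the gate in AOM PN 1, 2 and 3, at full depth and after thinning to 1500 UMIs, with 95% exact binomial intervals. AOM PN 3 has the smallest share without Mcpt8 at full depth, 47.6%, and after thinning.

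A test of members against basophils could not be made. A gate of at least 5 Mcpt8 UMIs with no Kit, Cd3e, Cd79a or Epcam gave 13, 18 and 17 barcodes, under the 20 needed for a sum, and in AOM PN 3 all 17 of them held at least 5 Cpa3 UMIs. In the Apc ICI tumours the gate for mast cells found 7 of 5001, 9 of 7338 and 6 of 5226 kept barcodes, or 0.140%, 0.123% and 0.115%. These 22 barcodes held 272, 843 and 849 UMIs of Mcpt1, 704, 363 and 1095 of Mcpt2, 19, 104 and 6 of Mcpt4 and 192, 51 and 69 of Cma1. Their median mitochondrial share was 11.1%, 11.0% and 3.39%, above that of AOM PN members, and no test was made on so few cells.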

How the data were processed

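Droplet 3′ single-cell libraries were made from 3 AOM PN and 3 Apc ICI colon tumours. The authors deposited raw UMI counts of 31053 features per barcode, made with Cell Ranger 6.1.2 and mm10 per the submitters' processing notes; the gene annotation is not given in the sources used here. Groups were taken from the sample titles. Members and gene lists were chosen with earlier results of these data known.

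Barcodes were kept from 200 genes up and with mitochondrial UMIs of at most 20%. Doublets were marked by simulation, at an assumed 0.8% per 1000 barcodes, and left in. Members with at least 1500 UMIs were thinned to 1500 with a fixed seed, the state was read from the thinned counts, and those counts were summed per library and state, with at least 20 cells a sum. Each comparison used edgeR's quasi-likelihood test (4.0.16, R 4.3.3; TMM, filterByExpr) with library as a block, since both sums come from the same tumour, leaving out the 8 gate genes and the genes that define the state, with Benjamini-Hochberg adjustment over all genes tested and a threshold of 0.05. Named genes were those of the lists, and the 6 with the largest fold each way among called genes that moved the same way in every library and held at least 50 UMIs; between libraries, the 8 with the largest ratio among genes of at least 200 CPM in 1 library; against other barcodes, the 12 with the largest ratio among genes of at least 100 CPM, with 1 CPM added. Genes named among those called in every set, and Mt1 in the spread, were chosen after their values were seen.

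Shares have exact 95% binomial intervals, and a count of 0 allows 3 counts. Alternatives were RLE factors, no filter, no block, DESeq2 1.42.0, each library left out, other Cpa3 limits and thinning depths, removal of marked doublets or of members with UMIs of other cells, and, added later, no Mcpt8 limit. limma 3.58.1, Python 3.11.15, numpy 2.4.6, scipy 1.17.1, scikit-learn 1.9.0 and pandas 2.3.3 were used. Only the edgeR fit was tested on simulated counts. These held no difference in profile between libraries, no doublets, no RNA of other cells and no choice of states. A planned comparison with basophils was not run, for lack of barcodes.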

Additional observations from a re-analysis of the deposited data

Results flagged for a closer look

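Barcodes that met every step of the mast cell gate except the Mcpt8 limit were a signal outside the comparisons. They made up 1.05%, 0.520% and 7.57% of kept barcodes in AOM PN 1, 2 and 3, and at most 0.115% in an Apc ICI library. Of barcodes with at least 5 Cpa3 UMIs, they made up 9.75% to 34.1% in the AOM PN libraries. In Apc ICI 1, 2 and 3 they were 0 of 9, 1 of 12 and 6 of 14 such barcodes. The 6 in Apc ICI 3 carried Mcpt1 and Mcpt2 at 276 CPM, and the 1 in Apc ICI 2 at 86802 CPM. In AOM PN 3 the barcodes left out only by the Mcpt8 limit carried Mcpt1 and Mcpt2 at 174376 CPM, close to the 173966 CPM of members. Their Mcpt4 stood at 6125 CPM against 8107 CPM. In AOM PN 1 and 2 their Mcpt1 and Mcpt2 level was above that of members, at 155862 against 106903 CPM and 181950 against 93089 CPM. Tph1, the enzyme of serotonin synthesis, stood at 1800, 1437 and 2088 CPM in them and at 1384, 1122 and 1746 CPM in members. Whether Mcpt8 transcripts in these barcodes came from the mast cells, from free RNA or from a second cell in the droplet was not tested.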

How the results depend on the processing

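Counts of genes past the threshold moved with the processing. For Mcpt1 and Mcpt2, the 245 genes became 105 with DESeq2, 155 at 1000 UMIs, 368 at 2500 UMIs, 42 without marked doublets, 44 without members holding UMIs of 7 genes of other cells, and 152 to 235 when a library was left out. For Mcpt4 and Cma1, the 254 genes became 156 with no filter on low counts, 96 with DESeq2, 117 without marked doublets, 37 without members holding those UMIs, and 0 to 222 when a library was left out. For cytokines, the 20 genes became 8 with DESeq2, 9 at a Cpa3 limit of 10 and 11 to 34 when a library was left out. For cycling, the 495 genes became 115 with DESeq2, 217 at a Cpa3 limit of 10, 226 at 1000 UMIs, 164 without members holding those UMIs and 796 with no Mcpt8 limit; leaving out a library left 1 pair, so none was run. Changes in the members also change how many cells and genes are tested, and other causes were not tested.

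Without the replicate block, which ignores that both sums of a library come from 1 tumour, the paired comparisons gave 4, 0, 0 and 149 genes by edgeR in the same order, with 308, 375, 43 and 787 at an unadjusted p under 0.05.

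The member share of AOM PN 1 became 8.58% and 6.75% at Cpa3 limits of 3 and 10, 9.02% without haemoglobin-rich barcodes and 9.10% with no Mcpt8 limit. That of AOM PN 2 became 1.495% without marked doublets and 2.41% with no Mcpt8 limit, and that of AOM PN 3 became 11.0% at a Cpa3 limit of 10 and 19.2% with no Mcpt8 limit. Of 2566 values of called genes of the lists or with the largest folds under alternatives, 1583 kept direction and side of the threshold and 977 kept direction only; with RLE factors 223 of 224 kept both. The other 6 reversed, all without marked doublets and none called there: for Mcpt1 and Mcpt2, Btg2 (log2 -1.35 to 0.0885), Cd9 (-1.20 to 0.68) and Ifitm3 (-1.62 to 0.0900), and for Mcpt4 and Cma1, Cd9 (-0.70 to 0.99), Fth1 (-0.62 to 0.0465) and Tnfaip2 (-1.32 to 0.23). Of 216 shares with a UMI, 63 moved beyond their interval, 35 of them without thinning. Depth limits the shares of cytokines and of Mki67, which were 3.11% thinned and 15.0% unthinned in AOM PN 2, and the comparison with basophils was not run for lack of barcodes.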
